A study of Mus musculus with 18 samples.

Results

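The 9 genes described here encode regulators that hold mature T cells in the naive, resting state: Foxo1, Klf2, S1pr1, Foxp1, Tcf7, Lef1, Bach2, Satb1 and Ets1. They were taken by symbol from a table of 23951 gene rows, where all 9 were present, and all 9 were among the 11099 genes expressed enough to test. RNA had been sequenced from naive CD4 T cells of mice of 6 genotypes, with 3 libraries per genotype. In cluster Tg the entire miR-23 cluster, which also holds miR-24 and miR-27, was over-expressed in T cells. A single member of it was over-expressed in T cells in miR-23 Tg, in miR-24 Tg and in miR-27 Tg. In DKO both paralogous clusters, a and b, were deleted in T cells, and WT carried neither change. All genotypes were C57BL/6. The cells were sorted from CD4+ CD25- cells by a naive surface phenotype, so the sort itself selected for the naive state. The sources used here do not give the transgene promoter, the Cre line or the age of the mice. Nor do they say that each library came from its own animal, and the p-values given therefore cover only variation among libraries, which may be technical.

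Naive T cells circulate between blood and lymph nodes and stay out of the cell cycle until they meet antigen. Foxo1, a transcription factor kept out of the nucleus by growth signals, drives Klf2, and Klf2 drives S1pr1, the sphingosine phosphate receptor by which T cells leave lymph nodes. Foxp1 enforces quiescence and restrains the response to interleukin 7. Tcf7 and Lef1 are the paired factors of the Wnt pathway that set up T cell identity in the thymus and keep mature cells naive or memory-like. Bach2 represses effector genes, Satb1 organises chromatin of T cell genes, and Ets1 supports the survival and identity of resting T cells. MicroRNAs of the cluster act by pairing bases 2 to 8 of their strand, the seed, with sites in the 3′ UTR of an mRNA, which lowers that mRNA or its translation.

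The seeds are shown because they decide which members carry a match. The mature strands, from RefSeq on GRCm38.p6, are printed 5′ to 3′ with the seed in capitals. miR-27a-3p and miR-27b-3p share a seed. The mature strand of miR-23b-3p was not used here.
miR-23a-3p: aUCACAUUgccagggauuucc
miR-27a-3p: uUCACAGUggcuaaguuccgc
miR-27b-3p: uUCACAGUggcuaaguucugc
miR-24-3p: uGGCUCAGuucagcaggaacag

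Exact matches to the 7 seed bases (AATGTGA for miR-23, CTGAGCC for miR-24 and ACTGTGA for miR-27, on the mRNA strand only) were sought in the longest annotated 3′ UTR of each member, in GENCODE M21 transcripts. Matches were found in 5 of the 9 members, and none in the 3′ UTRs of Klf2, Lef1, Bach2 and Ets1. Among 9850 tested genes with an annotated 3′ UTR, 16.3% held a miR-23 match, 19.1% a miR-24 match and 16.9% a miR-27 match. The share holding a match to any of these was not computed, so the 5 of 9 cannot be set beside it. The median length of these 3′ UTRs was 1138 bases. Among the members only that of Klf2 (737) was shorter, and that of Foxo1 (6240) was the longest. The 7 sites are printed 5′ to 3′ as the mRNA strand in DNA letters, with the match in capitals, the chromosome of the gene, and the first base of the match counted from the start of the 3′ UTR. A match describes these letters and does not show that the site is used.
Foxo1, chromosome 3, miR-27 match at base 415 of 6240: tttgtaatACTGTGAtggtctca
S1pr1, chromosome 3, miR-23 match at base 831 of 1362: tgaggtgaAATGTGAgagttaag
S1pr1, chromosome 3, miR-24 match at base 275 of 1362: attttgcaCTGAGCCaaaggtct
Foxp1, chromosome 6, miR-23 match at base 1560 of 4752: tggtctgcAATGTGAgcaccaca
Tcf7, chromosome 11, miR-24 match at base 1166 of 1512: acttaaccCTGAGCCttgaaaaa
Satb1, chromosome 17, miR-23 match at base 655 of 3711: gaaaagaaAATGTGAaacacaat
Satb1, chromosome 17, miR-23 match at base 992 of 3711: atgcaattAATGTGAaaataatt

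The over-expressed hairpins were far above WT in the same table. In RPKM (reads scaled to transcript length and library size), Mir24-2 read 16951 to 70491 in cluster Tg and 13888 to 49237 in miR-24 Tg, against 18.9 to 45.99 in WT, and was listed at 0 in each DKO library, where Mir23a read 0 to 76.1 and Mir27a 0 to 39.5. Mir23a spanned 32829 to 176364 in cluster Tg and 64024 to 74236 in miR-23 Tg, with 0 to 279.5 in WT. Mir27a spanned 35501 to 172309 in cluster Tg and 27981 to 234933 in miR-27 Tg, with 95.6 to 193.7 in WT. On the first principal component, with 24.8% of the variance, 16 libraries scored -20.8 to -0.32, but DKO replicate 3 scored 51.3 and miR-27 Tg replicate 3 scored 122.5. These 2 are called the outlying libraries. Their mean level of 75 ribosomal protein genes was 987 and 1407 RPKM, in that order, against 249 to 554 in the other 16, with 249 to 380 in cluster Tg and 532 to 554 in WT; its part in the results was not tested. B cell markers also varied: 10 of them summed to 18.8 to 39.1 RPKM in cluster Tg, 4.72 to 20.7 in miR-23 Tg, 19.4 to 86.4 in miR-24 Tg, 30.2 to 148 in miR-27 Tg and 4.78 to 6.99 in DKO, with 4.60 to 6.45 in WT. The table holds no read counts, so absolute depth is unknown; depth relative to WT replicate 1, read from the smallest values, ran from 0.634 to 1.47. A header name is shared by 2 of the miR-23 Tg columns, called columns 3 and 4, which correlated more than any other pair (r = 0.954) but had 0 identical values over 10118 expressed genes.

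All 9 members were well expressed, at 1 RPKM or more in all 18 libraries. Per length, the mean level over the 18 libraries was highest for Tcf7, at 814 RPKM, which ranked 90 of the 11099 tested genes. Ets1 (502), Klf2 (321), S1pr1 (269), Lef1 (268) and Satb1 (179) followed, then Foxo1 (86.9), Foxp1 (62.1) and Bach2 (32.6, rank 3226). The members also differed in how steady they were. In both outlying libraries, all 9 members sat at the edge of their genotype, and in the same direction: Klf2 and Lef1 were the highest of the 3 libraries and the other 7 members the lowest. These libraries had been picked as extreme over all tested genes. The share of all tested genes at such an edge was not computed, so the 9 members have no background beside them. The SD of log2 values within a genotype was 0.15 for Foxo1 and 0.18 for S1pr1 and Satb1, but 0.48 for Klf2 and 0.46 for Bach2, against a median of 0.25 over all tested genes. Across single libraries, Klf2 spanned 5.22-fold and Bach2 5.01-fold, while Satb1, Foxp1 and Foxo1 spanned 1.84-fold to 1.94-fold.

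**Figure D1:**
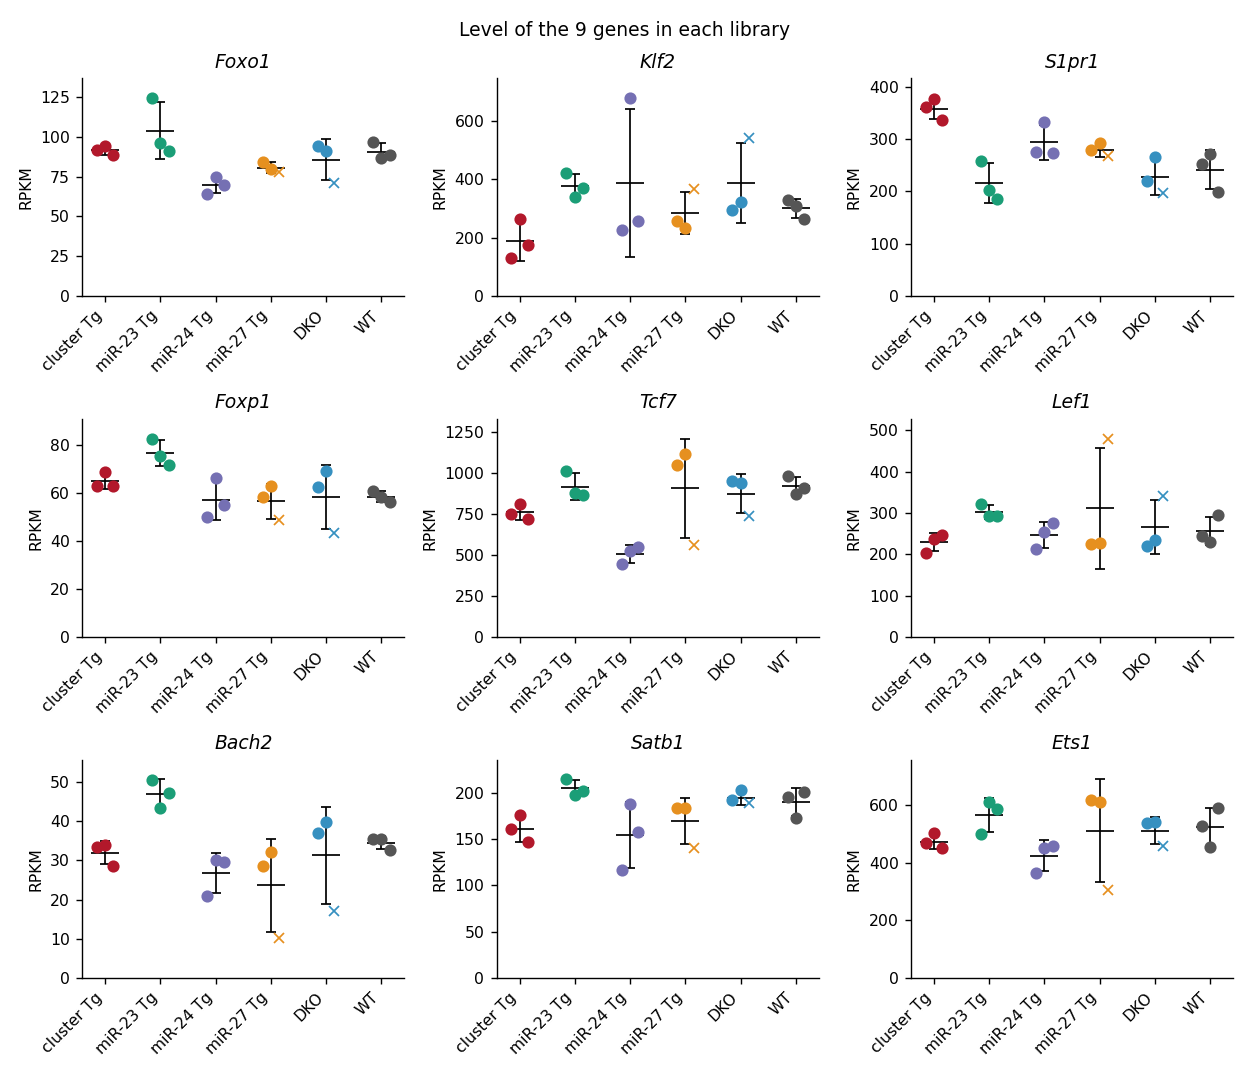
RPKM of each of the 9 genes in each library, grouped by genotype (3 libraries each); the bar and whiskers are mean ± SD, and crosses mark miR-27 Tg replicate 3 and DKO replicate 3. S1pr1 stands highest in the 3 cluster Tg libraries (336 to 377), Tcf7 lowest in miR-24 Tg (445 to 549), and the crosses are the highest of their genotype for Klf2 and Lef1 and the lowest for the other 7.

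S1pr1 was the 1 member of the 9 that passed the test against WT, in cluster Tg. With limma fitted to all 18 libraries on log2(RPKM + 1), a gene is called at a Benjamini-Hochberg adjusted p under 0.05. The members called were 1 higher and 0 lower in cluster Tg, where 5.63% of all tested genes were called higher and 2.85% lower. By limma 0 members were called in miR-23 Tg (0.045% of all genes called in either direction), in miR-24 Tg (3.59%), in miR-27 Tg (8.95%) or in DKO (0%). At an unadjusted limma p under 0.05 there was 1 member in miR-23 Tg, Foxp1, and 2 in miR-24 Tg, Foxo1 and Tcf7, with 0 in miR-27 Tg and DKO. Quantile normalisation moved the split of all called genes to 564 higher and 611 lower in cluster Tg, against 625 and 316 without it, and to 219 higher and 199 lower in miR-24 Tg, against 258 and 140. In cluster Tg against DKO, again 1 member was called higher, S1pr1, beside 7.14% of all genes (793 higher and 466 lower, or 665 and 744 with quantile normalisation). With 1 of 9 called in these 2 comparisons and 0 in the other 4 genotypes against WT, the members' counts do not stand out from the shares of all genes. Between transgenics, 2 members were called lower in miR-24 Tg against miR-23 Tg, beside 2.79% of all genes. In miR-27 Tg against miR-23 Tg 1 was called lower, beside 7.22%. In cluster Tg against miR-23 Tg 1 was called higher, beside 6.54%, and in miR-27 Tg against miR-24 Tg 1 was called higher, beside 6.78%. Across the 6 genotypes at once, limma's F test called S1pr1 (adjusted p = 0.0264), beside 19% of all genes. That call was lost without cluster Tg replicate 1, 2 or 3, DKO replicate 1, or miR-23 Tg column 3 or 4 (0.0509 to 0.0854). Foxo1 (0.0627) and Tcf7 (0.0639) came next, and the other 6 lay between 0.22 and 0.72. The F test without the 2 outlying libraries called 6 of the 9 members, beside 50.9% of all genes: Tcf7 (0.000161), Bach2 (0.00316), Foxo1 (0.00894), S1pr1 (0.0112), Foxp1 (0.0210) and Ets1 (0.0330).

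**Figure D2:**
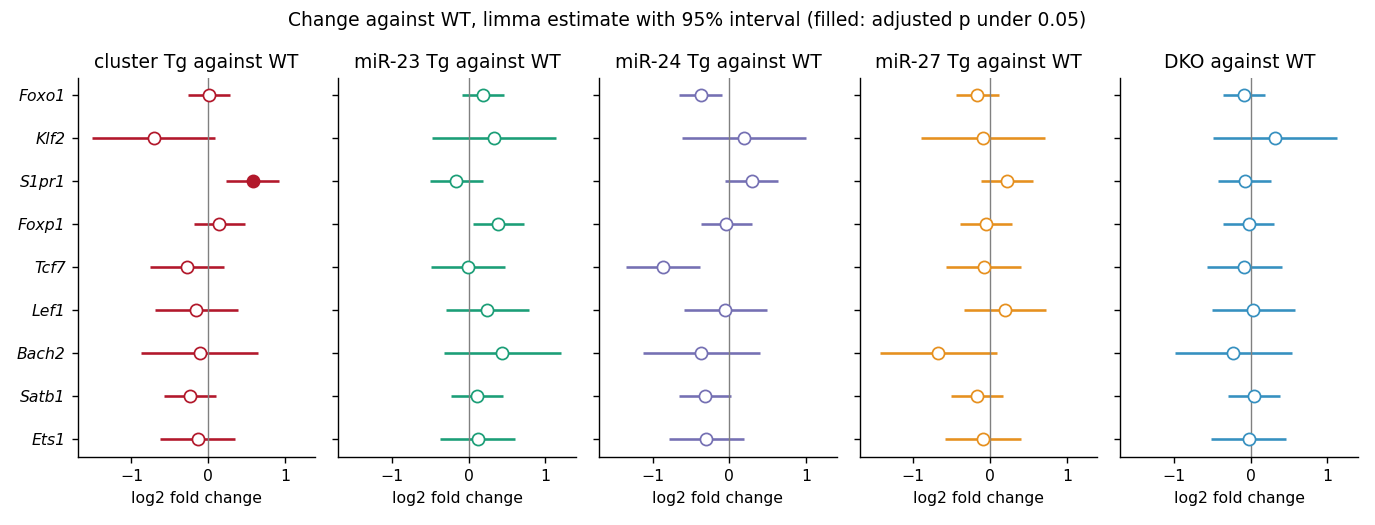
Log2 fold change of each member against WT in the 5 genotypes, with the 95% interval from limma; filled points have an adjusted p under 0.05. The S1pr1 point in cluster Tg (0.58) is the filled one; Tcf7 in miR-24 Tg (-0.87) lies farthest from 0 and has an adjusted p of 0.0505.

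Foxo1, the head of the egress axis, kept to a narrow band in most genotypes. It read 64.2, 74.5 and 69.97 RPKM in miR-24 Tg, against 96.8, 86.6 and 88.3 in WT. All 3 miR-24 Tg libraries lay below all 3 WT libraries, a separation in either direction that 33.5% of all genes had, and the difference of -0.38 on the log2 scale (SE 0.13) had a limma adjusted p = 0.145. Without the 2 outlying libraries the same difference had a limma adjusted p = 0.0224, where 8.07% of all genes were called lower, and with only the 6 libraries compared it was 0.0442. In miR-27 Tg, whose seed matches the Foxo1 3′ UTR, it read 84.2, 79.7 and 77.98, also below every WT library, in a comparison where 27.3% of all genes did not overlap. That difference was -0.17 (95% interval -0.44 to 0.11, limma adjusted p = 0.411). In cluster Tg, which over-expresses the same microRNA, Foxo1 was 91.6, 94.2 and 88.6, all within the WT range. With all 18 libraries the only called difference of Foxo1 lay between single transgenics. It was 69.5 ± 5.15 in miR-24 Tg and 104 ± 17.995 in miR-23 Tg (SD, n = 3 each), a log2 difference of -0.56 (SE 0.13, limma adjusted p = 0.0186), where 2.79% of all genes were called lower. The call was lost with quantile normalisation (0.0739) and without miR-23 Tg replicate 1 (0.0853), miR-24 Tg replicate 1 (0.0948) or miR-24 Tg replicate 3 (0.0596). Without the outlying pair, Foxo1 was also called in cluster Tg against miR-24 Tg (0.39, adjusted p = 0.0210), miR-24 Tg against DKO (-0.41, 0.0263, where 6.94% of all genes were called lower) and miR-27 Tg against miR-23 Tg (-0.33, 0.0452). Its means ran from miR-23 Tg down through cluster Tg, WT, DKO and miR-27 Tg to miR-24 Tg.

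Klf2, the factor between Foxo1 and S1pr1, was the least steady member. It read 130.0, 265 and 175 RPKM in cluster Tg, against 327, 308 and 264 in WT. Of the cluster Tg libraries 2 lay below all WT libraries, and the remaining one was level with the lowest WT library. The difference of -0.71 on the log2 scale had a 95% interval of -1.52 to 0.09 and a limma adjusted p = 0.329. Against DKO, which read 294, 322 and 542, the groups did not overlap, as for 37.6% of all genes, and the difference, -1.03 with an SE of 0.38, had a limma adjusted p = 0.103. In miR-24 Tg, Klf2 was 678 in replicate 2 but 225 and 258 in the other libraries. The 3 miR-23 Tg libraries, at 422, 339.6 and 368, all lay above those of WT, with a difference of 0.33 and a limma adjusted p = 0.999.

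S1pr1, the egress receptor, read 362, 377 and 336 RPKM in cluster Tg, against 253, 272 and 199 in WT. The groups did not overlap, as was true of 42.8% of all tested genes in this comparison. S1pr1 rose to 358 ± 20.6 in cluster Tg, against 241 ± 37.5 in WT (SD, n = 3 each), which is 1.48-fold or 0.58 on the log2 scale (SE 0.16, limma adjusted p = 0.0381). The call was lost under quantile normalisation (adjusted p = 0.0533) and when any single cluster Tg library, WT replicate 1 or WT replicate 3 was left out, with the highest adjusted p, 0.173, without WT replicate 3. Without the 2 outlying libraries it held, at an adjusted p = 0.00981, where 15.6% of all genes were called higher. Against DKO, at 221, 267 and 197, the rise in cluster Tg was 0.66 (SE 0.16, limma adjusted p = 0.0165), and against miR-23 Tg, at 259, 203 and 186, it was 0.74 (SE 0.16, limma adjusted p = 0.00897), where 6.54% of genes were called higher. In that comparison without the 2 outlying libraries, S1pr1 was called higher and Klf2, Lef1 and Bach2 lower, beside 17.6% of all genes called higher and 17.4% lower. The call against DKO was lost with only the 6 libraries compared (0.0529) and without cluster Tg replicate 1 or 2 or DKO replicate 1 or 3 (0.0561 to 0.0702), and that against miR-23 Tg without its column 4 (0.0501). miR-24 Tg (276, 332 and 273) and miR-27 Tg (278, 293 and 267) lay between. Their differences from WT were 0.29 and 0.22, with limma adjusted p = 0.482 and 0.379. The means of S1pr1 ran from cluster Tg down through miR-24 Tg, miR-27 Tg, WT and DKO to miR-23 Tg. The 95% interval of DKO against WT ran from -0.42 to 0.26. S1pr1, which carries a miR-23 and a miR-24 seed match, had its highest mean in the genotype that over-expresses both. Against the sum of the 3 single transgenic changes, the cluster Tg change of S1pr1 differed by 0.23 (SE 0.32, limma adjusted p = 0.976), and the other 8 members had the same adjusted p. At an unadjusted limma p under 0.05 there were 0 members, and 0.00901% of all genes were called.

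Klf2 and S1pr1 were at opposite ends in cluster Tg. Cluster Tg had the lowest mean of Klf2 (189.9 ± 68.7) and the highest of S1pr1. Over the 18 libraries Spearman's rho of Klf2 with S1pr1 was -0.56, and -0.53 over the 16 without the outlying pair. These points share genotypes and library composition, so the value is a description. Foxo1 with Klf2 gave 0.13 over the 18 libraries and 0.40 over the 16, and Foxo1 with S1pr1 gave -0.19 and -0.33.

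**Figure D3:**
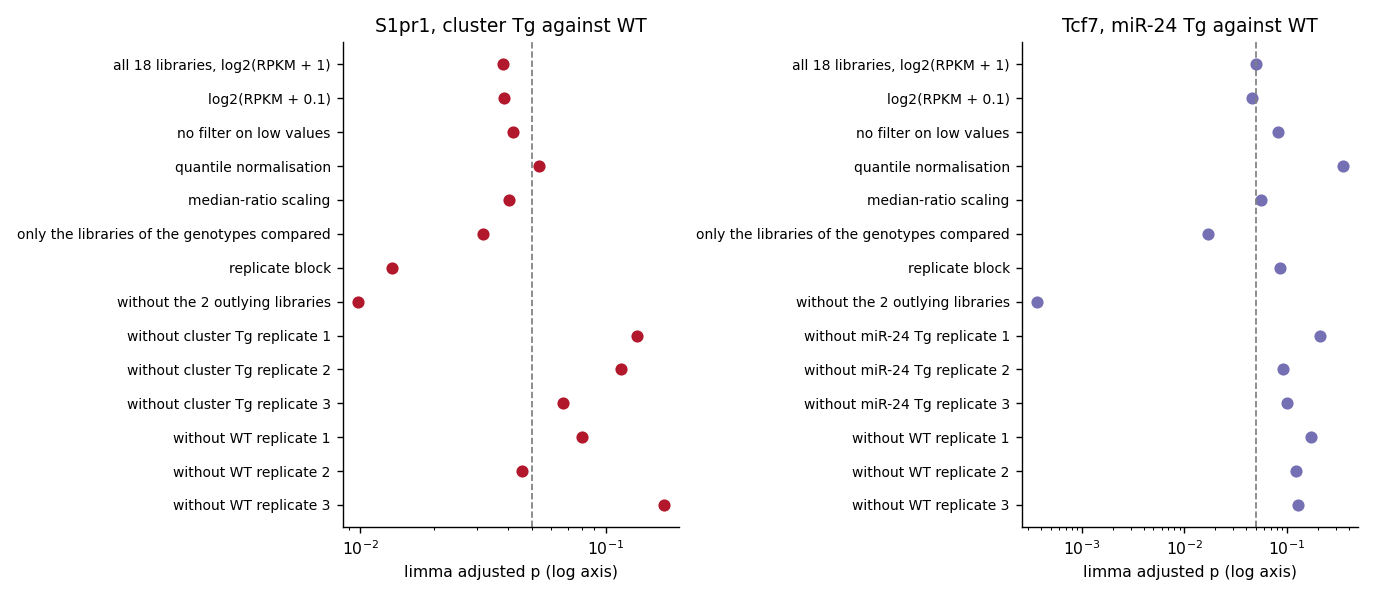
Limma adjusted p (log axis) of S1pr1 in cluster Tg against WT and of Tcf7 in miR-24 Tg against WT under each setting; the dashed line is 0.05. S1pr1 lies right of the line for 5 of the 6 single libraries left out (up to 0.173), and Tcf7 spans 0.000369 without the 2 outlying libraries to 0.351 with quantile normalisation.

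Foxp1, whose 3′ UTR holds a miR-23 match, had its highest mean in miR-23 Tg. It read 82.8, 75.6 and 71.99 RPKM in miR-23 Tg, against 60.98, 58.3 and 56.3 in WT. The groups did not overlap, as for 28.9% of all genes here, and the difference, 0.38 with an SE of 0.16, had a limma adjusted p = 0.564. Without the 2 outlying libraries it was called (adjusted p = 0.0441), where 1.96% of all genes were called higher and no other member was called. Cluster Tg, at 62.9, 68.8 and 63.2, also lay above every WT library, by 0.15 (limma adjusted p = 0.731). The lowest Foxp1 values of all, 43.5 and 48.7, were those of DKO replicate 3 and miR-27 Tg replicate 3.

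Tcf7, the most abundant member, was lowest in miR-24 Tg. It read 445, 524 and 549 RPKM there, against 979, 873 and 908 in WT. The highest miR-24 Tg library stayed far below the lowest WT library. The means were 506 ± 54.4 in miR-24 Tg and 920.3 ± 54.2 in WT (SD, n = 3 each), a ratio of 0.55 and a log2 difference of -0.87 (SE 0.23). The limma adjusted p of 0.0505 just missed the threshold. It passed with a pseudocount of 0.1 (0.0453), with only the 6 libraries compared (0.0170) and without the 2 outlying libraries (0.000369). It did not pass with quantile normalisation (0.351) or with any of the 6 libraries left out (0.0918 to 0.209).

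Between transgenics the test was passed. Tcf7 was lower in miR-24 Tg than in miR-23 Tg (1011, 878 and 864) by -0.86 on the log2 scale (SE 0.23, limma adjusted p = 0.0351). It was higher in miR-27 Tg (1048, 1114 and 558) than in miR-24 Tg by 0.78 (SE 0.23, limma adjusted p = 0.0355), where 6.78% of all genes were called higher. In miR-27 Tg the lone low value is that of replicate 3. Against miR-23 Tg the call was lost when any library of either genotype was left out (0.0565 to 0.151). Between miR-27 Tg and miR-24 Tg it was lost without any library but miR-27 Tg replicate 3 (0.0716 to 0.121), and both calls were lost with quantile normalisation (0.235 and 0.372). Cluster Tg, with Mir24-2 hairpin values as high as those of miR-24 Tg, had Tcf7 at 753, 811 and 717, above every miR-24 Tg library and below every WT library. The libraries of cluster Tg and miR-24 Tg did not overlap for 31.1% of all genes. Cluster Tg stood 0.59 above miR-24 Tg (SE 0.23, limma adjusted p = 0.245, and 0.00347 without the 2 outlying libraries, where 8.06% were called higher). Against WT, cluster Tg differed by -0.28 (95% interval -0.76 to 0.21, limma adjusted p = 0.602).

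Tcf7 is made by T cells and not by B cells, so its level was set beside the B cell markers. In miR-24 Tg the summed B cell markers were 86.4, 19.4 and 34.6 RPKM, against 6.45, 4.60 and 4.91 in WT. The summed level of 6 T cell markers was 2386 to 2455 in miR-24 Tg, against 2676 to 2862 in WT. They did not differ alike. In miR-24 Tg and WT, in that order, the means were 586 and 592 for Cd3g, 352 and 373 for Cd3d, and 300 and 327 for Cd3e. For Lat they were 647 and 752, for Cd4 377 and 464, and for Cd5 167 and 257. miR-27 Tg replicates 1 and 2, with B cell sums of 30.2 and 91.1, had Tcf7 of 1048 and 1114, above all WT libraries. Replicate 3 of miR-27 Tg, an outlying library, had a B cell sum of 148 and Tcf7 of 558, below all WT libraries. The part of B cell transcripts in the Tcf7 level was not tested. In these bulk samples, fewer cells of a type and less RNA per cell cannot be told apart.

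**Figure D4:**
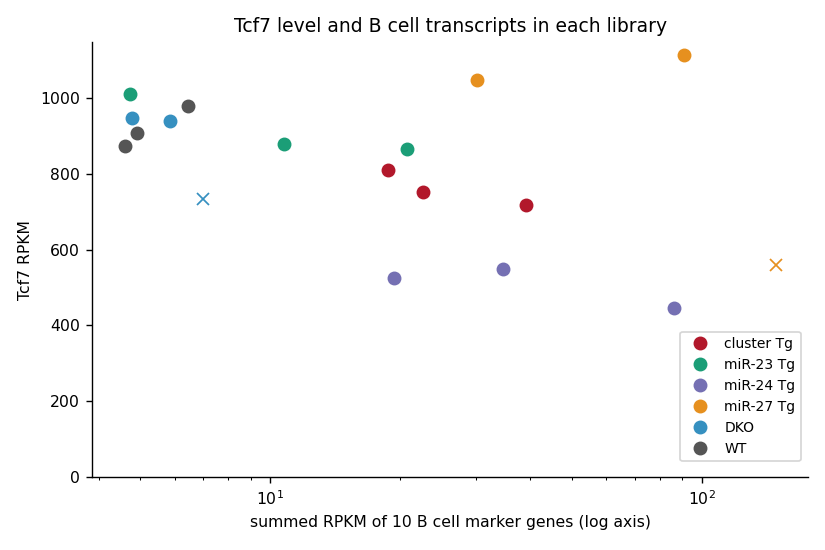
Tcf7 (RPKM) against the summed RPKM of 10 B cell markers (log axis) in each of the 18 libraries, coloured by genotype; crosses mark the 2 outlying libraries. The miR-24 Tg libraries lie at 445 to 549. miR-27 Tg replicates 1 and 2 lie at 1048 and 1114, and miR-27 Tg replicate 3 lies at 558 with a B cell sum of 148.

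Lef1, the partner of Tcf7, did not share its pattern. It read 212, 253 and 275 RPKM in miR-24 Tg, against 243, 231 and 295 in WT, overlapping groups with a difference of -0.06 (95% interval -0.60 to 0.48, limma adjusted p = 1.00). Spearman's rho of Tcf7 with Lef1 over the 18 libraries was -0.16, and 0.02 over the 16 without the outlying pair. The 2 highest Lef1 values were 479.7 in miR-27 Tg replicate 3 and 341 in DKO replicate 3, the outlying libraries. The other miR-27 Tg libraries read 226 and 228, and the other DKO libraries 221 and 235, all below the WT mean of 256. In miR-23 Tg, Lef1 was 320.5, 292 and 292, with a difference from WT of 0.24 (limma adjusted p = 0.985).

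Bach2, the repressor of effector genes, was the least abundant member and highest in miR-23 Tg. It read 50.7, 43.4 and 47.2 RPKM in miR-23 Tg, against 35.6, 35.5 and 32.5 in WT, with no overlap and a difference of 0.44 (SE 0.36, limma adjusted p = 0.921). The miR-24 Tg libraries (20.9, 30.1 and 29.5) and the miR-27 Tg libraries (28.6, 32.2 and 10.1) all lay below every WT library. Their differences were -0.37 and -0.68, with limma adjusted p = 0.808 and 0.252, and they were -0.205 without miR-24 Tg replicate 1 and -0.18 without miR-27 Tg replicate 3. Bach2 was called in 1 comparison with all 18 libraries, lower in miR-27 Tg (23.6 ± 11.8) than in miR-23 Tg (47.1 ± 3.62) by -1.11 (SE 0.36, limma adjusted p = 0.0468), where 7.22% of all genes were called lower. The difference was -0.61 without miR-27 Tg replicate 3 (adjusted p = 0.134), and the same with DKO replicate 3 also left out (adjusted p = 0.00644, with 13.8% of all genes called lower). The call was also lost without any of the 3 miR-23 Tg libraries (0.0854 to 0.134). DKO replicate 3, at 16.99, lay below the other DKO libraries (37.02 and 39.9). Without the 2 outlying libraries, Bach2 was also called lower in miR-24 Tg than in DKO (-0.52, limma adjusted p = 0.0235), beside 6.94% of all genes. It was then also called lower than in miR-23 Tg in cluster Tg (limma adjusted p = 0.00506, beside 17.4%) and in miR-24 Tg (0.000724, beside 15.3%).

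Satb1 and Ets1 passed no test of 1 genotype against another with all 18 libraries. Satb1, with 2 miR-23 matches, read 215, 198 and 202 RPKM in miR-23 Tg, against 196, 173 and 202 in WT, overlapping groups with a difference of 0.11 (95% interval -0.23 to 0.45). It read 161, 176 and 147 in cluster Tg and 117, 188 and 158 in miR-24 Tg, and in each of these 2 genotypes 2 libraries lay below every WT library. The differences from WT were -0.24 and -0.32, with limma adjusted p = 0.484 and 0.388, and the second was -0.14 without miR-24 Tg replicate 1. Ets1 read 364, 452 and 458 in miR-24 Tg, against 528, 454 and 589 in WT, a difference of -0.30 (95% interval -0.79 to 0.19, limma adjusted p = 0.705). Its lowest value of all, 307, was again miR-27 Tg replicate 3, where the other miR-27 Tg libraries read 617 and 613.

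In DKO the largest difference from WT was that of Klf2, 0.31 on the log2 scale, and no member had groups that did not overlap, as against 4.96% of all tested genes. The narrowest interval, of Foxo1, ran from -0.37 to 0.19, and the widest, of Klf2, from -0.49 to 1.12. Without DKO replicate 3 the difference of Klf2 was 0.04, and that of Foxp1, 0.17, was the largest. With all libraries, a change of Klf2 in DKO as large as that of S1pr1 in cluster Tg lies inside its interval.

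The comparisons of miR-23 Tg and of miR-24 Tg with WT share the WT libraries. In miR-23 Tg 7 of the 9 members had a positive difference from WT, with a median of 0.18. In miR-24 Tg 7 had a negative one, with a median of -0.30, and the medians of all tested genes were 0.01 in both. Compared directly, miR-24 Tg lay below miR-23 Tg for 7 members without overlap of the libraries, as S1pr1 did in the other direction, which held for 43.2% of all genes. The remaining member, Klf2, overlapped, with a difference of -0.14 on the log2 scale but a mean of 387 RPKM in miR-24 Tg and 377 in miR-23 Tg. Of these, Foxo1 and Tcf7 were called lower, beside 2.79% of all genes. Without the 2 outlying libraries, 6 were called lower, Foxo1, Foxp1, Tcf7, Bach2, Satb1 and Ets1, and S1pr1 was called higher, beside 15.3% of all genes called lower and 15.8% called higher. With all 18 libraries, limma in none of the 9 orders of 6 genotype means separated a genotype from the next one down (adjusted p 0.245 to 1).

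The genes most like each member over the 18 libraries, by Spearman's rho among 8541 genes of at least 5 RPKM, are a description. S1pr1 was closest to Picalm (rho 0.97), an endocytic adaptor, and Mex3b (0.93). Klf2 was closest to Jund (0.96), an AP-1 factor, and P4hb (0.92). Tcf7 was closest to Lphn1 (0.96) and Git2 (0.94), Foxo1 to Bcl11b (0.91), a T cell identity factor, and Smarcd1 (0.90), and Bach2 to Pom121 and Isg20l2 (both 0.97). Foxp1 was closest to Usp53 and Msl2, Lef1 to Rbm17 and Bcas2, Satb1 to Poldip3 and Flcn, and Ets1 to Arhgef18 and Ncstn, at 0.87 to 0.92. Among the members themselves, the closest pair was Foxo1 and Bach2 (0.81), then Tcf7 and Ets1 (0.80), and the farthest was S1pr1 and Satb1 (-0.64).

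Downstream of Foxo1 and Klf2, 1 of 11 homing, survival and stress genes rose in cluster Tg and 0 fell, beside 5.63% of all genes called higher. Gabarapl1, an autophagy gene, rose to 11.3 ± 3.39 RPKM in cluster Tg, against 2.05 ± 0.618 in WT (log2 2.00, limma adjusted p = 0.00032). Gabarapl1 also rose in miR-24 Tg (7.32 ± 1.05, limma adjusted p = 0.00542) and miR-27 Tg (5.79 ± 0.664, limma adjusted p = 0.0120), as the single called gene of the list. In these genotypes 2.32% and 5.77% of all genes were called higher, in that order. None of the 11 was called in miR-23 Tg or DKO by limma, where 5 and 0 had an unadjusted p under 0.05. Ccr7, the lymph node homing receptor, was 209 ± 27.7 in cluster Tg and 286 ± 20.3 in WT (limma adjusted p = 0.457). The list's median difference in cluster Tg was 0.09, against 0 over all genes tested.

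Among 24 tested genes of other quiescence regulators, 1 gene rose in cluster Tg, 2 genes rose in miR-27 Tg, and none fell. In miR-23 Tg, miR-24 Tg and DKO limma called 0 of them, and 0 had an unadjusted p under 0.05. Cdkn2c, an inhibitor of the cyclin D kinases, rose to 10.6 ± 3.06 in cluster Tg and also, at 6.34 ± 0.752, in miR-27 Tg, against 3.13 ± 1.17 in WT (limma adjusted p = 0.000715 and 0.0240). Slfn2, needed for T cell quiescence in mice, rose to 688 ± 309 in miR-27 Tg, against 275 ± 41.3 in WT (limma adjusted p = 0.0203). Against DKO, cluster Tg had lower Btg1 (164 ± 22.7 in cluster Tg, 278 ± 54.5 in DKO, limma adjusted p = 0.0394), an antiproliferative gene, and lower Tsc22d3 (199 ± 41.7 in cluster Tg, 397 ± 137 in DKO, limma adjusted p = 0.0294), the glucocorticoid-induced leucine zipper. Of all 11099 tested genes, 466 were called lower there. Both calls, of Btg1 and Tsc22d3, were lost with quantile normalisation (adjusted p = 0.0787 and 0.0777).

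Of 16 partners and pathway genes of Tcf7 and Lef1, Tle1, a co-repressor bound by both factors, fell to 2.77 ± 0.712 RPKM in cluster Tg and likewise to 2.76 ± 0.757 in miR-27 Tg, against 5.82 ± 1.69 in WT (limma adjusted p = 0.0380 and 0.0370). Without the 2 outlying libraries, the miR-27 Tg call was lost (0.0649). Pygo2, a beta-catenin co-activator subunit, rose to 51.5 ± 12.9 in miR-27 Tg, against 36.0 ± 0.680 in WT (limma adjusted p = 0.0477). Of all 11099 tested genes, 316 were called lower in cluster Tg, and 640 higher and 353 lower in miR-27 Tg. None of the 16 was called by limma in miR-24 Tg, where Tcf7 was lowest and 4 had an unadjusted p under 0.05, nor in miR-23 Tg (1) or DKO (0). In miR-24 Tg, 1 of the 16 rose and 4 fell without the outlying pair, beside 1041 of all 11099 tested genes higher and 896 lower. None of 15 other T cell transcription factors was called by limma in cluster Tg, the single transgenics or DKO against WT, where 0 to 4 had an unadjusted p under 0.05. Without the outlying pair, 3 of these factors rose and 1 fell in cluster Tg and likewise in miR-27 Tg, 1 rose and 1 fell in miR-23 Tg, 1 rose and 2 fell in miR-24 Tg, and 0 were called in DKO. Of all 11099 tested genes, 1728 were then called higher and 1497 lower in cluster Tg, and 1266 and 952 in miR-27 Tg. The numbers were 217 and 215 in miR-23 Tg, 1041 and 896 in miR-24 Tg, and 1 and 1 in DKO.

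Genes of effector and memory T cells, which members such as Bach2, Foxo1 and Tcf7 are known to hold low, behaved otherwise. Of 20 tested, 14 rose in cluster Tg (5.63% of all genes called higher), 9 in miR-24 Tg (2.32%) and 8 in miR-27 Tg (5.77%). In miR-23 Tg and DKO 0 rose, and none fell in any genotype. At an unadjusted limma p under 0.05 there were 3 in miR-23 Tg and 2 in DKO. Without the 2 outlying libraries the counts were 17 in cluster Tg, 15 in miR-24 Tg and 11 in miR-27 Tg. Of all 11099 tested genes, 1728, 1041 and 1266 were then called higher, in that order. The median difference was 1.32 in cluster Tg, 1.19 in miR-24 Tg and 0.52 in miR-27 Tg, against at most 0.03 over all genes. In cluster Tg, S100a6 rose to 94.7 ± 46.2 RPKM, against 6.68 ± 2.44 in WT (limma adjusted p = 0.000756). The granzyme Gzmk rose to 14.4 ± 5.64 there, against 0.249 ± 0.05 in WT (limma adjusted p = 1.02e-05), and S100a4 to 153 ± 66.8, against 13.7 ± 5.22 (limma adjusted p = 0.00612). The chemokine Ccl5 rose to 35.1 ± 15.4 in miR-24 Tg and likewise to 37.2 ± 25.5 in miR-27 Tg, against 1.93 ± 1.497 in WT (limma adjusted p = 0.00286 and 0.00197). Cxcr3 rose to 16.4 ± 8.55 in miR-24 Tg, against 1.45 ± 0.489 in WT (limma adjusted p = 0.00218). In cluster Tg, where 14 of these genes rose, Bach2 was 31.9 ± 2.94, against 34.5 ± 1.72 in WT, and Foxo1 was 91.5 ± 2.81, against 90.6 ± 5.47. Tcf7 was 760.2 ± 47.6 in cluster Tg, against 920.3 ± 54.2 in WT, without overlap but also without a call (limma adjusted p = 0.602). In miR-24 Tg, where 9 rose, Bach2 was 26.8 ± 5.13, Foxo1 69.5 ± 5.15 and Tcf7 506 ± 54.4. Each lay below every WT library, again without a call with all 18 libraries. In miR-27 Tg, where 8 rose, Bach2 (23.6 ± 11.8) and Foxo1 (80.6 ± 3.20) lay below every WT library. Tcf7 (907 ± 303) overlapped WT there. The part of these levels in the effector counts was not tested. Other cell markers also varied, beside the B cell sums. The 2 CD8 markers summed to 32.7 to 50.3 in cluster Tg and 29.7 to 46.5 in miR-24 Tg. In miR-27 Tg they summed to 31.9 to 78.8, with 17.5 to 20.6 in WT. The 3 NK cell markers summed to 0.908 to 0.98 in cluster Tg, 1.28 to 4.45 in miR-24 Tg and 0.857 to 1.80 in miR-27 Tg, with 0.0782 to 0.209 in WT. The 8 myeloid markers summed to 79.2 to 86.3 in cluster Tg, 89.2 to 224 in miR-24 Tg and 86.7 to 782 in miR-27 Tg, with 64.0 to 75.5 in WT. The Treg factor Foxp3 read 4.51 to 5.01, 4.41 to 15.9 and 5.19 to 6.41 in the same 3 genotypes, against 2.59 to 2.96 in WT. In that order, 5 naive T cell markers summed to 1182 to 1381, 1474.7 to 1556.5 and 1328 to 1951, with 1547 to 1866 in WT. Of these, Igfbp4, Ccr7 and Actn1 had lower means in cluster Tg than in WT, but Dapl1 and Il7r had higher ones. In the same order, 4 thymocyte markers, nearly all Dntt, summed to 17.8 to 24.9, 14.3 to 16.7 and 10.8 to 23.5, with 6.30 to 7.93 in WT. The 3 erythroid markers summed to 1.37 to 10.5, 4.79 to 58.7 and 2.99 to 292, with 0.446 to 18.8 in WT. Their sums in cluster Tg lay within the WT range. The part of all these markers in the effector counts was not tested.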

How the data were processed

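The authors deposited 1 table of RPKM values for 23953 gene rows and 18 libraries. Per the labels' protocols, total RNA from sorted cells was made into Illumina TruSeq libraries. STAR 2.2.0c, HOMER and mm9 are named by the submitters' processing notes, but gene models and strand use are not given there, so overlapping or antisense genes cannot be told apart. RPKM divides by the reads of the library, so a few very abundant transcripts lower all others. Of rows that repeat a symbol (2 dropped) the one with the highest mean was kept.

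The 11099 genes that reached 1 RPKM in 3 or more libraries were tested on log2(RPKM + 1), a scale that understates changes of low genes. Genotype was the only term of a limma model (version 3.58.1, R 4.3.3, eBayes with trend) of the 18 libraries together. Calls are at a Benjamini-Hochberg adjusted p under 0.05 over all genes. All 15 pairs of genotypes were compared, with an F test and the change in cluster Tg minus the sum of the single transgenic changes. The fit was tested on simulated data. The median SE over all genes was 0.20 in cluster Tg against WT. An exact permutation test of 3 libraries against 3 cannot go below p = 0.1. Correlations over libraries are Spearman's; those between libraries over genes are Pearson's on the log2 scale.

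Named genes are the 9 members, in each list and comparison up to 3 called genes with the largest change, and for each member the 2 genes most like it; Ccr7 and the values of Bach2, Foxo1 and Tcf7 beside the effector genes were added after their values were seen. One gene of the lists is not reported here. The members and lists were chosen with earlier results of these data known. Alternatives were a pseudocount of 0.1, no filter, quantile and median-ratio scaling, only the genotypes compared, a replicate block, each library left out in turn and, added after seeing the data, leaving out both outlying libraries.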

Additional observations from a re-analysis of the deposited data

How the results depend on the processing

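S1pr1 in cluster Tg carried the count of members called against WT, which was 0 with quantile normalisation and 0 to 1 with single libraries left out. Against DKO the count was 0 with only the 6 libraries compared and 0 to 1 with single libraries left out. In miR-24 Tg it was 1 with a pseudocount of 0.1, 2 with only the 6 libraries compared and 2 without the outlying pair, and in miR-23 Tg it was 1 without that pair. The count of all genes called in cluster Tg against WT, 941, was 2302 with only the libraries compared, 3225 without the pair and 419 to 710 with single libraries left out. In the order of these 3 alternatives, in miR-24 Tg 398 became 851, 1937 and 180 to 303, in miR-27 Tg 993 became 43, 2218 and 533 to 1223, in miR-23 Tg 5 became 14, 432 and 1 (2 with quantile normalisation), in DKO 0 became 4 and 2, with 0 for single libraries left out, and in cluster Tg against DKO 1259 became 3068 without the pair and 561 to 901 with single libraries left out.

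The values that changed sign had adjusted p of 0.173 or more throughout; the cause was not tested. With quantile normalisation they were Tcf7 in miR-23 Tg (0.013), Lef1 in miR-24 Tg (0.025), miR-27 Tg (-0.017) and DKO (-0.085), Satb1 in DKO (-0.052), and in cluster Tg against DKO Tcf7 (0.00022), Lef1 (0.041) and Ets1 (0.035). With the replicate number as a block, in miR-23 Tg, they were S1pr1 (0.12), Tcf7 (0.077) and Ets1 (-0.099). The block used the numbered libraries only; same-numbered libraries deviated together with a median r of 0.08 over 30 pairs, 11 of them above 0.1, against -0.038 over the other 60. Not every pair exceeded 0.1, so the libraries were not treated as paired. All 3 same-numbered pairs of miR-27 Tg with DKO did exceed it (0.21, 0.29 and 0.58). Yet miR-27 Tg replicate 1 with DKO replicate 2 gave 0.28, and miR-27 Tg replicate 2 with DKO replicate 1 gave 0.30. Replicate 3 of each is an outlying library, so these values do not show matching by number. With the block, S1pr1 in cluster Tg against WT had an adjusted p = 0.0135. Without the outlying pair they were, in miR-27 Tg, Foxp1 (0.05), Tcf7 (0.23), Lef1 (-0.17) and Ets1 (0.24); in DKO, Foxo1 (0.037), S1pr1 (0.0199), Foxp1 (0.17), Tcf7 (0.037), Lef1 (-0.16), Bach2 (0.15) and Ets1 (0.0499); and in cluster Tg against DKO, Foxo1 (-0.022), Foxp1 (-0.0197), Lef1 (0.0027) and Bach2 (-0.26). With single libraries left out, sign changes were seen in cluster Tg for Foxo1 (-0.016 to 0.063), in miR-23 Tg for Tcf7 (-0.078 to 0.039), in miR-24 Tg for Klf2 (-0.31 to 0.49), Foxp1 (-0.15 to 0.049) and Lef1 (-0.14 to 0.0496), in miR-27 Tg for Klf2 (-0.29 to 0.039), Foxp1 (-0.13 to 0.05), Tcf7 (-0.26 to 0.23), Lef1 (-0.17 to 0.38) and Ets1 (-0.26 to 0.24), in DKO for Foxo1 (-0.17 to 0.037), S1pr1 (-0.21 to 0.0199), Foxp1 (-0.16 to 0.17), Tcf7 (-0.15 to 0.037), Lef1 (-0.16 to 0.15), Bach2 (-0.44 to 0.15), Satb1 (-0.028 to 0.083) and Ets1 (-0.13 to 0.0597), and in cluster Tg against DKO for Foxo1 (-0.022 to 0.18), Foxp1 (-0.0197 to 0.31), Lef1 (-0.31 to 0.0027) and Bach2 (-0.26 to 0.33).

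Between transgenics, the replicate block lost S1pr1 in cluster Tg against miR-23 Tg (adjusted p = 0.148), Tcf7 in miR-24 Tg against miR-23 Tg (0.153) and in miR-27 Tg against miR-24 Tg (0.0546), and Bach2 in miR-27 Tg against miR-23 Tg (0.194). With only the libraries compared, Tcf7 in miR-27 Tg against miR-24 Tg (0.403) and Bach2 in miR-27 Tg against miR-23 Tg (0.282) were also lost, but the members called in cluster Tg against miR-23 Tg were 5 in place of 1. The share of all genes called there under that setting was not computed, so the 5 have no background beside them. In cluster Tg against WT the same setting raised the calls over all genes from 941 to 2302. With no filter on low values, Tcf7 was lost in miR-24 Tg against miR-23 Tg (0.0586) and in miR-27 Tg against miR-24 Tg (0.0632), and Bach2 in miR-27 Tg against miR-23 Tg (0.0677). With 3 libraries a genotype and no read counts, differences of the size of the wider intervals could not be resolved.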
